A study of Homo sapiens with 2 samples.

Results

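In KYSE510 cells, 1986 MLL3 sites stood alone on the chromosome with their point of highest signal almost on top of that of a GRHL2 region. KYSE510 is an established line from an esophageal squamous cell carcinoma, and no treatment other than culture is given for the cells used. Chromatin had been fixed with formalin, sonicated and pulled down with an MLL3 antibody (Millipore Sigma) for 1 library and a GRHL2 antibody (GeneTex) for the other, and each list of regions was called against input. The study's title names an MLL3/GRHL2 complex, and the sites described here are those where the 2 lists come closest. The design text also speaks of siRNA knockdown of each factor, and knockdown cells were not analysed here. With 1 library per antibody in 1 cell line, no value carries an error between replicates, and no comparison below is a test. The read depth of the libraries is unknown.

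The sites were selected on measured positions, so their overlap, closeness and isolation are not findings. A member is an MLL3 region on chromosomes 1 to 22 that overlaps a GRHL2 region by at least 1 bp. Its summit, the base of highest signal, lies at most 50 bp from the nearest GRHL2 summit, and no other MLL3 summit lies within 12500 bp. The tracts chr1:212100000-216700000 and chr9:5200000-9600000, crowded with regions of both factors, were left out. Of 11896 MLL3 regions on these chromosomes, 10269 lay outside the tracts, 7120 of those were isolated, and 1986 of the isolated ones were centred on a GRHL2 summit. Another 3810 isolated sites overlapped a GRHL2 region with summits more than 50 bp apart (offset sites), and 1324 met no GRHL2 region. Each centred site had a GRHL2 region of its own, 1986 in all. Fold enrichment, the height of the signal over its local background, and −log10 q are the authors' deposited values for each region. They come from the same libraries as the rule and are therefore described without a test. Coordinates are 1-based in hg19.

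MLL3 (gene KMT2C) is an enzyme that places monomethyl marks on histone H3 at enhancers as part of a large COMPASS-like complex. Such enzymes are brought to their sites largely by other proteins. GRHL2 is a Grainyhead-like transcription factor that binds a specific DNA motif, can open chromatin and maintains genes of epithelial adhesion and polarity. The sequences and the nearest genes of the sites are not given, because no hg19 genome or annotation was used here.

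MLL3 enrichment at the centred sites ran from 2.93-fold to 70.5-fold. The median was 7.97 (95% interval of the median from order statistics 7.71 to 8.13, quartiles 5.77 and 11.8). Offset sites had a median of 6.90 (95% interval 6.75 to 7.08, quartiles 5.38 and 9.48), and isolated sites without GRHL2 one of 5.76 (5.73 to 6.02). The intervals, which cover the number of regions only, did not overlap between these sets, although the quartiles of centred and offset sites did. Over all 11896 MLL3 regions the median was 6.47. A fold of at least 10 was reached by 667 centred sites (33.6%, exact 95% interval 31.5 to 35.7%), beside 19.8% of all MLL3 regions on chromosomes 1 to 22, 22.1% of offset sites and 5.97% of isolated sites without GRHL2. MLL3 regions were of similar width at centred and offset sites (medians 410 and 400 bp) and narrower without GRHL2 (297 bp). Fold enrichment moves in steps: 1323 centred sites shared their exact MLL3 value with at least 1 other.

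Centred sites were common among the strongest MLL3 regions. They made up 19.3% of the 10269 MLL3 regions outside the tracts and 42 of the 100 with the highest fold. The rest of those 100 were 27 offset sites, 1 isolated site without GRHL2 and 30 regions with another MLL3 summit within 12500 bp. Among the 1000 highest, with folds of at least 14.3, 335 were centred and 336 offset.

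GRHL2 enrichment at the centred sites was spread far more widely than that of MLL3, with a lower and a higher concentration. The lists have unequal thresholds, with a lowest −log10 q of 2.07 for MLL3 and 0 for GRHL2, which limits this comparison. The median was 8.48 (95% interval 7.99 to 9.29), with quartiles of 4.0 and 36.3 and a maximum of 169. In steps of 0.5 on the log2 scale, the share of sites rose to 16.1% between 2.83-fold and 4-fold, fell to 5.09% between 16-fold and 22.6-fold, and rose again to 8.11% (161 sites) between 45.3-fold and 64-fold. At offset sites the same steps held 23.9%, 4.96% and 3.73%, so the share fell across that range without a second rise. The offset median was 4.84 (95% interval 4.78 to 5.06). MLL3 had a single concentration in both sets, between 5.66-fold and 8-fold (605 centred sites and 1300 offset sites).

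**Figure D1:**
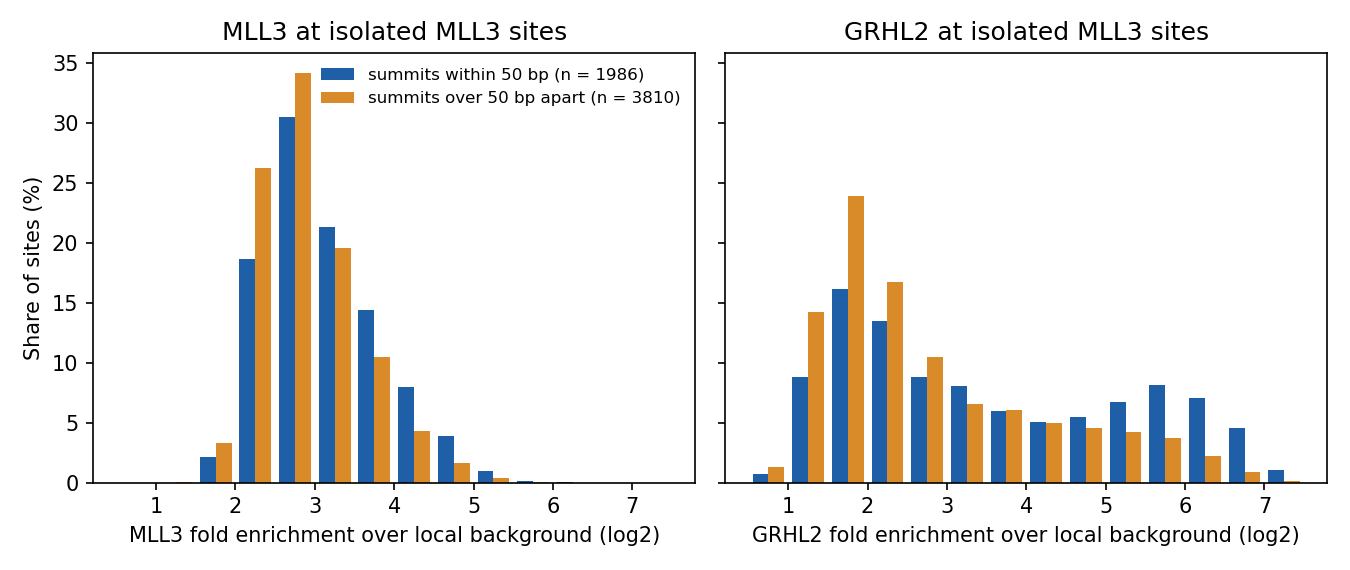
Share of sites (%) by fold enrichment over local background (log2, bins of 0.5) for MLL3 on the left and GRHL2 on the right, at 1986 centred sites (blue) and 3810 offset sites (orange). MLL3 has 1 hump in both sets, whereas GRHL2 at centred sites has a second hump around a log2 of 5.5 to 6 (161 sites). The MLL3 and GRHL2 lists have unequal thresholds.

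The GRHL2 regions under the centred sites ranged from very strong to a q above 0.05. A −log10 q of at least 2 was reached by 1665 of 1986 (83.8%, 95% interval 82.1 to 85.4%), beside 19.5% of all GRHL2 regions on chromosomes 1 to 22 and 74.2% of those under offset sites. A −log10 q of at least 100 was reached by 595 (29.96%, 95% interval 28.0 to 32.0%), beside 1.39% of all GRHL2 regions and 13.3% of those under offset sites. At the other end, 219 centred sites (11.03%) lay on a GRHL2 region with a q above 0.05, which the loose threshold of that list let in. A GRHL2 region of the smallest listed width, 265 bp, lay under 33 centred sites (1.66%) and 110 offset sites (2.89%). Over all GRHL2 regions on chromosomes 1 to 22, the lower quartile of width was also 265 bp. The shares over all GRHL2 regions are given as background only, since overlap with GRHL2 was part of the choice.

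Seen from GRHL2, the stronger the region, the more often it carried an isolated MLL3 site, centred or offset. Outside the tracts, 595 of 2079 GRHL2 regions whose −log10 q was at least 100 carried a centred site (28.6%, 95% interval 26.7 to 30.6%). At a −log10 q from 20 to 100 the share was 9.20% of 3792 regions. It was 5.67% of 7514 regions from 5 to 20 and 2.14% of 13783 from 2 to 5. Where q was above 0.05, it was 0.214% of 102345 regions. The share with an offset site rose from class to class as well. It was 0.634% where q was above 0.05, 5.87% from 2 to 5, 11.6% from 5 to 20 and 16.9% from 20 to 100. The regions also widened from class to class. Their median width was 313 bp where q was above 0.05 and 1699 bp in the strongest class. A wider region has more room for an overlap, and what part of the rise goes with width was not tested. In the strongest class centred sites (595) outnumbered offset sites (507 regions, 24.4%), and 503 regions had no MLL3 region. In each of the 5 weaker classes more regions carried an offset site than a centred one. Of the 100 GRHL2 regions of highest fold, 47 carried a centred site, 19 an offset site and 3 no MLL3 region.

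MLL3 was higher at centred than at offset sites mainly where GRHL2 was strongest. On GRHL2 regions whose −log10 q was at least 100, the median MLL3 fold was 11.3 at 595 centred sites (95% interval 10.6 to 11.9) and 8.69 at 507 offset sites (8.26 to 9.63). The difference of these medians was 2.57. On regions with a q above 0.05 the medians were 6.20 (219 centred sites, 95% interval 5.80 to 6.65) and 6.17 (649 offset sites, 6.06 to 6.41). In the 4 classes between, centred medians lay between 7.09 and 7.49 and offset medians between 6.65 and 7.20. There the differences were 0.28 to 0.44, and the 95% intervals overlapped in each class. Below a −log10 q of 100 as a whole, the medians were 7.09 and 6.65. That difference of 0.44 fell to 0.173 when MLL3 regions with a −log10 q under 5 were left out. The 95% interval of the centred median, less the offset median taken as fixed, was 0.198 to 0.644 before and -0.0699 to 0.364 after. The second of these held 0. They leave out the spread of the offset sites, cover the number of regions only and are not a test.

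The strongest class was itself uneven, since its centred sites also had more GRHL2 (median fold 57.1, against 46.4 at its offset sites). In narrower bands of −log10 q the MLL3 medians were 8.42 and 7.75 between 100 and 200 (188 centred and 256 offset sites). They were 11.4 and 10.6 between 200 and 400 (235 and 177 sites). In these bands the differences were 0.669 and 0.758, smaller than the one over the whole class. The 95% intervals overlapped in both bands. They were 7.59 to 8.89 (centred) and 7.23 to 8.10 (offset) between 100 and 200. Between 200 and 400 they were 10.6 to 12.1 and 9.31 to 11.8. At 400 and above the medians were 16.8 (172 centred sites, 95% interval 14.1 to 19.3) and 12.3 (74 offset sites, 9.43 to 15.3), and these intervals overlapped. The difference there, 4.50, was larger than the one over the whole class. What part of the gap goes with the strength of GRHL2 was not tested.

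**Figure D2:**
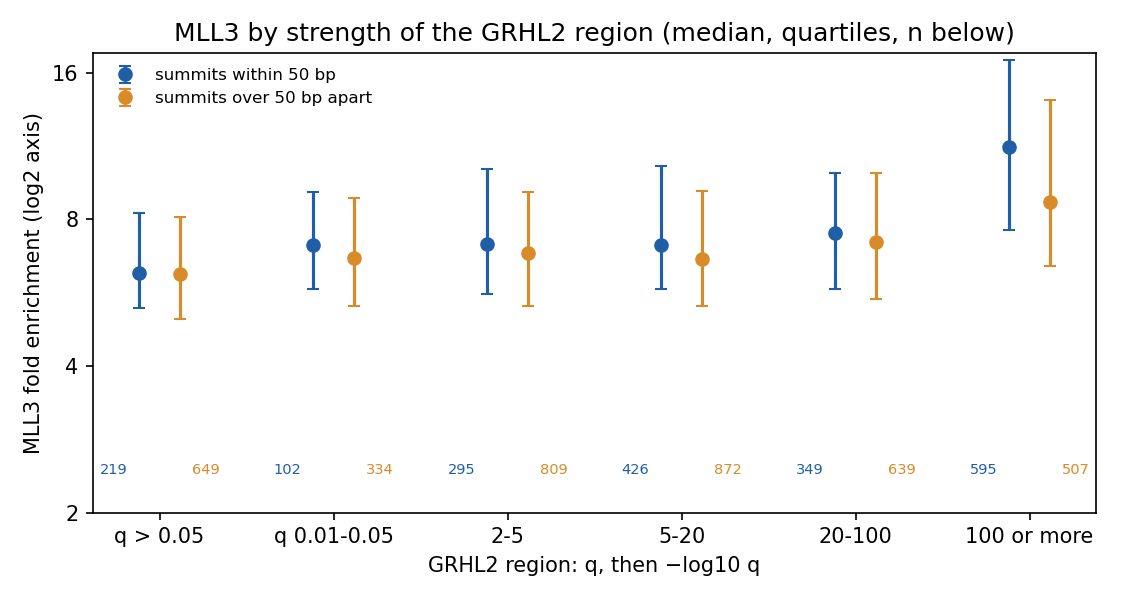
Median MLL3 fold enrichment (log2 axis) with bars from the lower to the upper quartile, by the q or −log10 q of the GRHL2 region, for centred (blue) and offset (orange) sites, with the number of sites at the bottom. The medians nearly coincide where GRHL2 is weak (6.20 and 6.17) and part in the strongest class (11.3 and 8.69). In that class the centred sites also have more GRHL2 (median fold 57.1, against 46.4 at offset sites).

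Across the 1986 centred sites, the MLL3 and GRHL2 fold enrichments rose together (Spearman rho = 0.39, Pearson r = 0.43 on log2 values). Across the 3810 offset sites the values were 0.21 and 0.28. These relations are across regions of 1 pair of libraries, which share cells, input and local background, and are given as a description. Within GRHL2 classes of centred sites, rho was 0.50 over the 595 sites of the strongest class and between 0.10 and 0.32 in the weaker ones. At offset sites it was 0.34 in the strongest class and between 0.04 and 0.12 in the weaker ones. The strongest class has no upper limit, so the classes span unequal ranges, which limits this comparison. The step by deciles of MLL3 fold at centred sites showed the same form. In the 5 lower deciles, up to a fold of 7.96, the median GRHL2 fold stayed between 4.99 and 6.66. It then went from 9.58 in the sixth decile to 31.2 in the ninth and 64.2 in the tenth, where MLL3 was at least 18.0-fold and 67.8% of GRHL2 regions had a −log10 q of at least 100.

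Within the limit of 50 bp, the summits mostly fell on different bases. The median distance was 23 bp. In 28 sites both summits fell on the same base, beside 21.4 sites per position over 0 to 10 bp as a whole. The GRHL2 summit was to the left in 994 sites and to the right in 964. Per base position on either side, the isolated shared sites numbered 21.4 at 0 to 10 bp, 20.8 at 11 to 25 bp, 18.2 at 26 to 50 bp, 13.5 beyond 50 and up to 100 bp and 6.84 beyond 100 and up to 200 bp. The count thus declined from about 25 bp outward with no step at 50 bp. In the last 5 bp inside the limit there were 155 sites, with median folds of 7.96 for MLL3 and 7.33 for GRHL2. In the first 5 bp outside there were 189, with medians of 7.90 and 7.33. "Centred" therefore names a range of distances and not a separate class of sites.

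The called summits were closer where GRHL2 was stronger. Over all isolated shared sites the median distance was 120 bp on GRHL2 regions with a q above 0.05, 89 bp at a −log10 q of 5 to 20 and 45 bp at 100 and above. The share of sites within the limit went from 25.2% (219 of 868, 95% interval 22.4 to 28.3%) to 54.0% (595 of 1102, 51.0 to 57.0%). MLL3 was also higher in the strongest class (centred and offset medians 11.3 and 8.69, against 6.20 and 6.17 at a q above 0.05). How precisely summits are placed in weak regions is unknown, and its part in these distances was not tested.

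**Figure D3:**
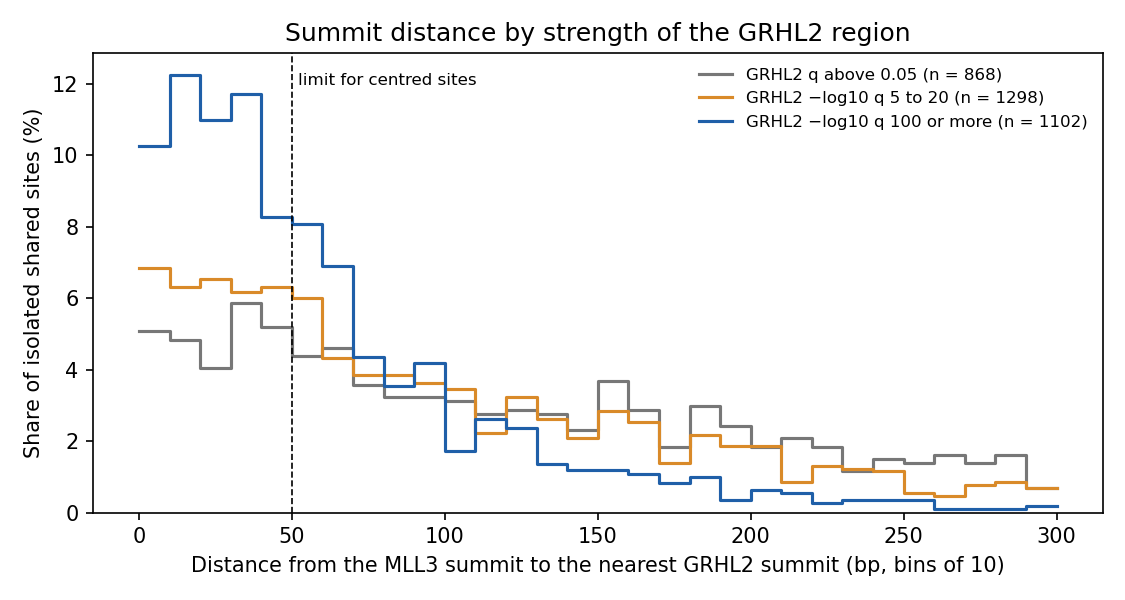
Share of isolated MLL3 sites on a GRHL2 region (%) by distance between summits (bp, bins of 10), for GRHL2 regions with a q above 0.05 (868 sites), a −log10 q of 5 to 20 (1298) and of 100 or more (1102). The strongest class is the most compact, with a median of 45 bp, and no class has a step at the limit of 50 bp.

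At most centred sites a short MLL3 region sat inside a longer GRHL2 region. This was so at 1542 sites (77.6%, 95% interval 75.7 to 79.5%). Close summits favour nesting by construction, so offset sites give no comparison. The MLL3 region covered a median of 43.4% of the GRHL2 width (quartiles 29.1 and 69.6%), and the GRHL2 regions were 922 bp wide in the median. Where nested, the GRHL2 region reached a median of 227 bp beyond MLL3 on the shorter side and 443 bp on the longer one. The reverse nesting occurred at 85 sites (4.28%), and at 359 each region reached past the other at one end. Measured from the left end, the MLL3 summit lay at a median of 49.1% of the MLL3 width (quartiles 39.2 and 59.0%). The GRHL2 summit lay at a median of 49.5% of the GRHL2 width (quartiles 40.5 and 58.3%). At offset sites the MLL3 summit had a similar position (median 49.3%, quartiles 38.0 and 61.2%). Widths depend on the threshold of each list, which was looser for GRHL2.

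The fifteenth place by MLL3 fold was shared, so 16 centred sites on 11 chromosomes are described, and in 15 of them the −log10 q of GRHL2 was at least 100. Their MLL3 folds ran from 36.8 to 70.5 and their GRHL2 folds from 16.8 to 160 (median 79.1). The first was chr2:99051779-99052854, with an MLL3 fold of 70.5 and a GRHL2 fold of 160, at rank 3 among the centred sites for GRHL2. Its next MLL3 summit was 21.5 kb away. The second, chr8:107620467-107621401, reached an MLL3 fold of 49.1 and a GRHL2 fold of 80.5 with no other MLL3 summit for 632 kb. The third, chr12:127609997-127611298, had folds of 46.8 and 57.5, and its MLL3 region reached past its GRHL2 region, whereas 14 of the 16 lay wholly inside theirs. It was also the widest of the 16, with 1302 bp.

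The site at chr10:50626648-50627549 had folds of 45.5 for MLL3 and 77.7 for GRHL2. At chr11:56594654-56595471 they were 43.0 and 112. Chromosome 1 held the next 3, at chr1:182070194-182071197 (MLL3 41.0, GRHL2 66.9), chr1:169749979-169751248 (41.0 and 69.5) and chr1:85690449-85691409 (40.6 and 118). The first of these was barely isolated, with another MLL3 summit at 13.4 kb. The others had MLL3 folds of at least 36.8 and lay at chr5:79789183-79790186, chr12:14666844-14667622, chr12:118709370-118710122, chr3:112449749-112450790, chr15:62501791-62502651, chr17:78129160-78130055 and chr3:30580273-30581260. At the site on chromosome 17 the summits fell on the same base. The site chr13:25425237-25426387 shared the lowest of these MLL3 folds, 36.8, but had a GRHL2 fold of only 16.8 and a −log10 q of 41.0.

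**Figure D4:**
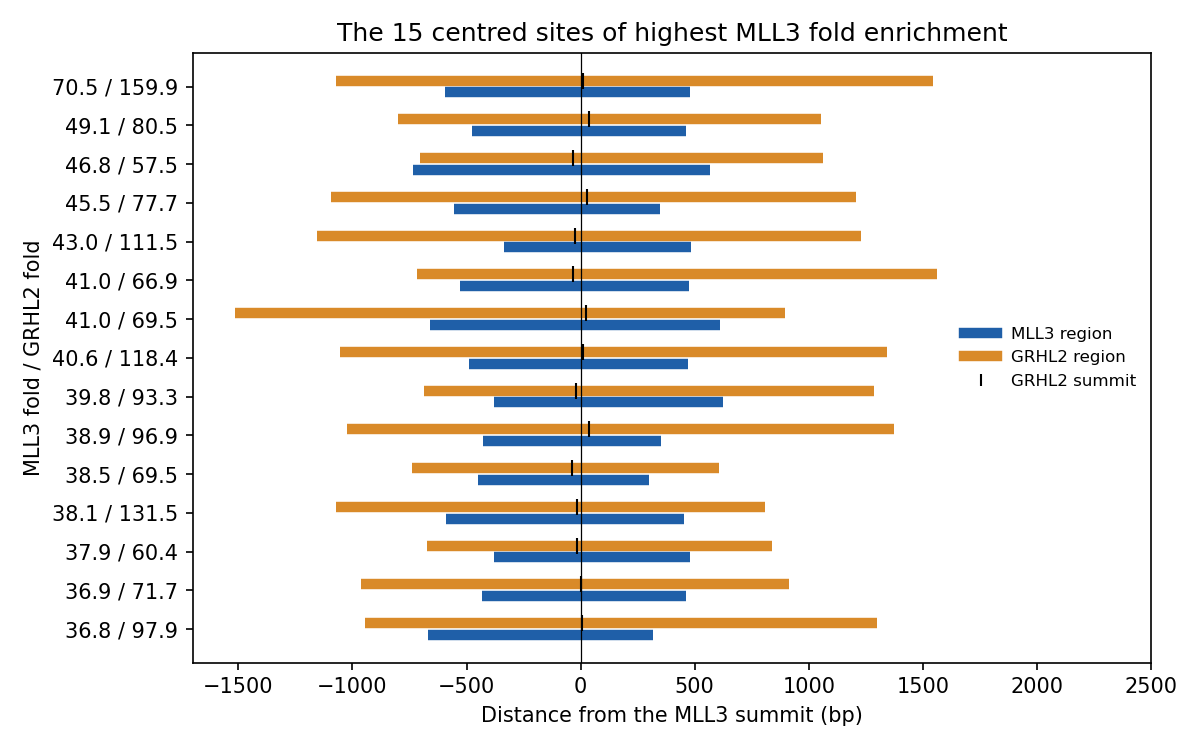
Extent of the MLL3 region (blue) and the GRHL2 region (orange) in bp from the MLL3 summit, with the GRHL2 summit as a tick, at the 15 centred sites of highest MLL3 fold, in order of that fold (of 2 sites tied at the last place, the one with more GRHL2 is drawn). In 14 of 15 the MLL3 region lies wholly inside the GRHL2 region, and the summits are 0 to 38 bp apart.

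Among the 5 sites of highest GRHL2 fold was the one with the most MLL3, at rank 3 for GRHL2, and the other 4 had MLL3 folds of 25.4 to 36.3. The site chr2:101944181-101945103 had the highest GRHL2 fold, 169, and an MLL3 fold of 25.4, which placed it at rank 72 of the 1986 for MLL3. At chr10:15032772-15033638 the folds were 169 for GRHL2 and 28.8 for MLL3, and the summits were 47 bp apart. At chr11:71325657-71326688 they were 160 and 30.6. The site chr4:85503357-85504111 had a GRHL2 fold of 151 and an MLL3 fold of 36.3, and its next MLL3 summit was 1225 kb away, the longest distance among the sites named here. Of the 100 sites of highest MLL3 fold among the 1986, 37 were also among the 100 of highest GRHL2 fold among the same 1986.

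The factors could also part at a shared summit. The lowest MLL3 fold of all, 2.93 at chr3:187467902-187468143, lay on a GRHL2 region of fold 23.5 with a −log10 q of 179. Similarly, chr1:152365513-152365725 had an MLL3 fold of 3.22 on a GRHL2 fold of 28.7. The second lowest, chr14:69044531-69044998 (MLL3 3.04), had a weak GRHL2 region as well (fold 2.63). In the opposite direction, and chosen after their values were seen, chr10:20121949-20122591 had an MLL3 fold of 24.4 on a GRHL2 region of fold 2.80 with a q above 0.05. So did chr11:71853038-71853566 (MLL3 21.2, GRHL2 2.80) and chr15:60608927-60609457 (MLL3 19.96, GRHL2 2.18). With 1 library each, none of these sites has a replicate check.

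Centred sites occurred on every autosome in similar proportion. They were 27.9% of the isolated MLL3 sites (95% interval 26.9 to 28.95%), with the lowest share on chromosome 22 (20.5%, 24 of 117) and the highest on chromosome 12 (31.3%, 129 of 412). The exact 95% interval of each of the 22 chromosomes held the overall share. The median GRHL2 fold was higher at centred than at offset sites on all 22 chromosomes, and the median MLL3 fold on 21. The exception was chromosome 13 (6.90 against 6.92, 51 centred sites). The highest MLL3 fold on a chromosome was lowest on chromosome 21, with 13.0 among 19 centred sites. On chromosome 18 the site with the most MLL3 (chr18:10925608-10926445, fold 27.6) had a GRHL2 fold of only 7.34.

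Further GRHL2 regions lay near most centred sites when regions of any strength were counted, as they did near offset sites. Within 12500 bp of a centred site lay a median of 2 further GRHL2 summits, and 415 sites (20.9%, 95% interval 19.1 to 22.8%) had none. The median was also 2 for offset sites, of which 19.5% had none (18.3 to 20.8%). Counting only GRHL2 regions whose −log10 q was at least 2, most centred sites had none (1383, 69.6%, 95% interval 67.6 to 71.7%). The share of offset sites was 65.7% (64.2 to 67.2%). At 5000 to 12500 bp from centred sites, 452 of 2505 summits reached that limit, beside 19.5% of all GRHL2 regions on chromosomes 1 to 22. Such GRHL2 summits were sparse at 500 to 1000 bp from a centred site (1.01 per 100 kb). How far the site's own GRHL2 region (median width 922 bp) reaches into this distance was not tested. At 1000 to 2000 bp the density of such summits was 2.44 per 100 kb. It was 1.97 at 2000 to 5000 bp, 1.52 at 5000 to 12500 bp and 2.06 at 12500 to 25000 bp. The limit on isolation bears on all distances up to 12500 bp, since no other MLL3 summit can lie there. Around offset sites the density was 2.99 at 1000 to 2000 bp, and around isolated sites without GRHL2 it was 1.17. The next MLL3 summit was a median of 65.7 kb from a centred site (quartiles 29.6 and 161 kb) and 61.8 kb from an offset site.

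**Figure D5:**
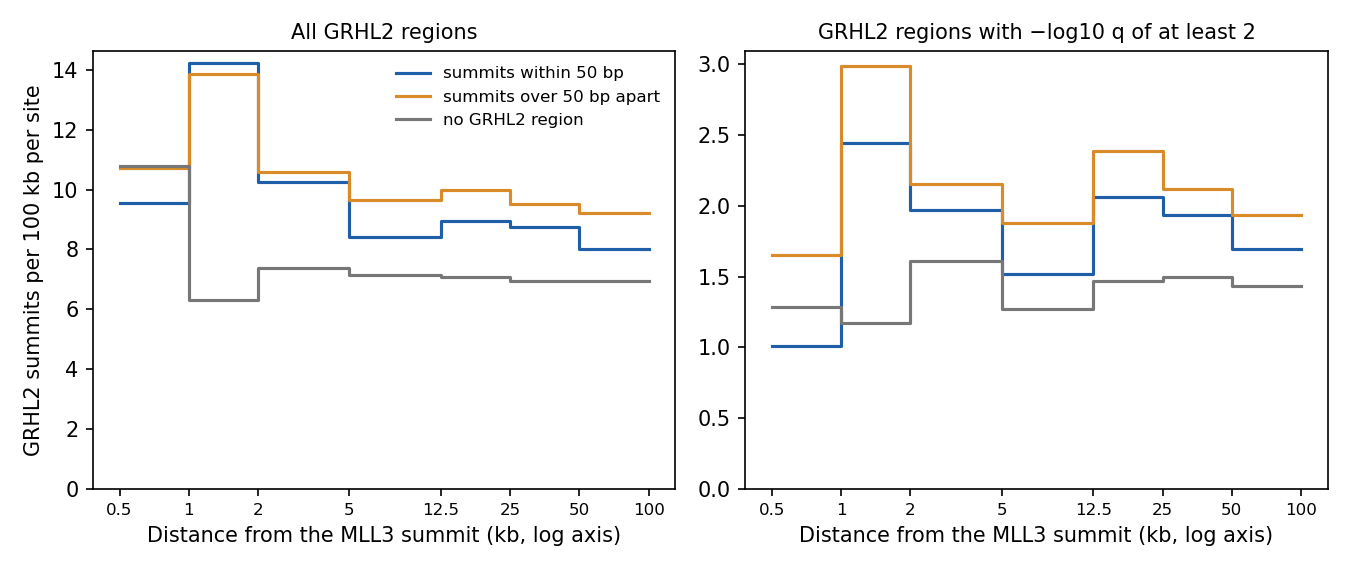
GRHL2 summits per 100 kb and site, without the region the site itself overlaps, by distance from the MLL3 summit (kb, log axis), for all GRHL2 regions (left) and those with a −log10 q of at least 2 (right). At 1000 to 2000 bp on the right, centred sites have 2.44, offset sites 2.99 and isolated sites without GRHL2 1.17.

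Just inside and just outside the limit on isolation, MLL3 levels were close. The 71 sites with the next MLL3 summit at 12500 to 15000 bp had median folds of 8.10 for MLL3 and 9.75 for GRHL2. The 114 sites that met every limit except isolation, with the next summit at 10000 to 12500 bp, had 8.16 and 8.25.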

How the data were processed

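MLL3 and GRHL2 ChIP-seq libraries of KYSE510 cells (1 each) were used as deposited narrowPeak lists of 12196 and 153209 regions. Per the submitters' processing notes, hg19 was the genome build and BWA, Picard, MACS2 and deepTools were used, with no versions or settings stated there. Regions were called against input per the file headers' region names. The deposited fold enrichment (a ratio), −log10 q-value, −log10 p-value and summit offset were taken as the authors gave them. The deposited score was within 1 of 10 times the −log10 q in all MLL3 lines and of 10 times the −log10 p in all GRHL2 lines, and was not used further. The lowest −log10 q was 2.07 for MLL3 and 0 for GRHL2, so the lists have unequal thresholds.

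Summits were start plus offset. For an offset site, the GRHL2 values are those of the overlapped region with the nearest summit. Selection and medians used Python 3.11.15, pandas 2.3.3 and scipy 1.17.1 and were tested on simulated lists. Shares have exact Clopper-Pearson 95% intervals, and medians have 95% intervals from binomial order statistics. Both treat regions as independent and cover counting only. No p-values were computed, since regions are not replicates. Read depth is unknown.

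The sites, the classes of GRHL2 strength and the lists were chosen with earlier results of these data known. Regions named are the 15 highest and 3 lowest by MLL3 fold, the 5 highest by GRHL2 fold and the highest by MLL3 on a chromosome where it stood out. Another 3, of high MLL3 on GRHL2 regions with a q above 0.05, and the choice of chromosome followed after their values were seen. The tie at the fifteenth place was broken by GRHL2 fold. Motif searches, distances to start sites and gene lists need an hg19 sequence or annotation and were not carried out. The gene table and promoter sequences at hand were in GRCh38 coordinates and were not used.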

Additional observations from a re-analysis of the deposited data

Results flagged for a closer look

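Chromosome X was outside the selection but held 52 sites that met the same limits on overlap, summit distance and isolation, out of 200 isolated MLL3 sites there. Their MLL3 folds ran from 4.43 to 35.4 with a median of 8.44, and their GRHL2 regions had a median fold of 16.7. They drew attention because they are a signal in data that the comparisons do not use. No group had enough samples to look for an outlying one.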

How the results depend on the processing

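The number of centred sites depended on the distance allowed between summits, with 1075 at 25 bp and 3337 at 100 bp in place of 1986. It stayed within 1.5 times under the other 6 alternatives, from 1370 with GRHL2 regions of −log10 q of at least 5 to 2355 with no other MLL3 summit within 5 kb. The median MLL3 fold was higher at centred than at offset sites by 1.07, and by 0.789 with only MLL3 regions of −log10 q of at least 5, where low folds are cut from both sets. For GRHL2 the difference was 3.64. It was 3.14 with summits up to 100 bp apart and 5.83 with GRHL2 regions of −log10 q of at least 2, where weak regions are left out. In 2 results added after the data had been seen, the MLL3 difference stayed between 2.01 and 3.11 on GRHL2 regions of −log10 q of at least 100 and between 0.173 and 0.496 below, lowest in each case with the stricter MLL3 list. None of the 23 alternatives for these differences turned a direction, but the interval of the value 0.173 held 0 (-0.0699 to 0.364, with the offset median taken as fixed). The alternatives for the Grainyhead motif and for distance to start sites were not run, since no hg19 sequence or annotation was used. Read depth, which is unknown, limits both lists. No paired analysis was possible because there was 1 library per antibody.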
